A study of Mus musculus with 10 samples.

Results

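Hist1h1t, Hils1, H1fnt, Hist1h2ba, Hist1h2aa, H2afz, H3f3a and H3f3b are 8 mouse histone genes whose products replace or supplement the histones laid down at replication. They were chosen by name, with earlier results of these data known. Both single-cell count tables list all 8 among their 32285 genes. The series is titled as a study of the chromatin remodeler SMARCA5, of gene expression in meiosis and of fertility in males. It holds 2 kinds of measurement: UMIs (counted molecules) in 2 single-cell RNA samples of whole testis, and the accessible regions called in 8 ATAC-seq libraries of sorted germ cells. Both single-cell samples had the genotype Smarca5 fl/delta with Ddx4-Cre+, called cKO here, so they allow no genotype comparison. Ddx4-Cre acts in germ cells, so somatic cells of these testes keep the floxed allele and carry the deleted one. The ATAC libraries held 50000 cells each, in 4 groups of 2: cKIT+ cells of wild type C57BL6 and of cKO, and cells sorted on 4C DNA content of wild type and of cKO. A 4C sort takes every cell with a replicated diploid genome, pachytene spermatocytes included. For cKIT+ libraries the labels describe both sorts, and the group was taken from their line on library construction, which names cKIT+ cells. Ages of the animals are not given in the sources used here, nor whether replicates came from separate animals. The p-values therefore cannot be read as a spread between animals. For ATAC they rest on the spread between libraries. For the single-cell samples they rest on UMIs summed per cell class in 2 samples, and on the spread left once the difference between samples is removed.

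A nucleosome wraps DNA around H2A, H2B, H3 and H4, and linker histone H1 binds where the DNA enters and leaves. Most histone genes are expressed in S phase and give mRNAs that end in a stem loop, whereas replacement variants such as H2A.Z and H3.3 are made throughout the cell cycle from polyadenylated mRNAs. During spermatogenesis germ cells add testis variants of H1, H2A and H2B, and spermatids later exchange nearly all histones for transition proteins and then protamines. The single-cell kit primes on poly(A), so the values of the Hist1 genes are those of their captured polyadenylated RNA. H2afz, H3f3a and H3f3b have processed copies in the genome with nearly the same sequence, and how reads were divided between copies is not given in the sources used here.

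Promoter sequences of all 8 genes were matched by symbol in RefSeq (GRCm38.p6, the assembly of mm10). The 5 stretches here are printed from 5′ to 3′ on the strand of the gene and end at the base before its listed start site. They show the interval shared by the TH2A and TH2B genes, the promoters of an early and a late linker histone, and those of the 2 genes that encode H3.3. Capitals mark matches on either strand to the CCAAT box, the TATA box (letters TATAAA), the octamer (letters ATTTGCAT), the core of the cAMP response element (letters TGACG) or the GC box (letters GGGCGG).
Hist1h2aa, chr13:23934187-23934436, plus strand: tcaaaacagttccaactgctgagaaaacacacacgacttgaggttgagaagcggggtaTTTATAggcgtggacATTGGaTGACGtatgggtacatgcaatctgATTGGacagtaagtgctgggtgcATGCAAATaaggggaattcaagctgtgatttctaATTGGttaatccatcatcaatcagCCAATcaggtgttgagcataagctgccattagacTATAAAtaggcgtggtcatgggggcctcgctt
Hist1h1t, chr13:23695661-23695810, plus strand: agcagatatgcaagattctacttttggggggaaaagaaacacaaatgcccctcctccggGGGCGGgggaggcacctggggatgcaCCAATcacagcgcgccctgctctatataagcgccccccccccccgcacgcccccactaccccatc
Hils1, chr11:94967443-94967592, plus strand: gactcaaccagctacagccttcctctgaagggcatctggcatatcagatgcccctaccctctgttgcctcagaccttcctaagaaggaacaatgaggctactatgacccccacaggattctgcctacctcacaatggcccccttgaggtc
H3f3a, chr1:180813606-180813755, minus strand: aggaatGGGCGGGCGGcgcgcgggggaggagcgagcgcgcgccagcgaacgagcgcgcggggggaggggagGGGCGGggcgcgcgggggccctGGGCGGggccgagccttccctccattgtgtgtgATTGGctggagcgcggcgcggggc
H3f3b, chr11:116024505-116024654, minus strand: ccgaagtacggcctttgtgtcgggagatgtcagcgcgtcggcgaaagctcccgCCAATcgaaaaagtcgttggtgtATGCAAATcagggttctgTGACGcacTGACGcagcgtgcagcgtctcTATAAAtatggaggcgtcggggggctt

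The start sites of Hist1h2aa and Hist1h2ba lie 280 bases apart on opposite strands, so 1 stretch of DNA serves as the upstream region of both and most of its matches count for both genes. Over 250 bases before to 50 bases after the start site, CCAAT was found at 7 of the 8 genes and at 37.4% of 32851 mouse promoters. TATAAA and ATTTGCAT were each found at Hist1h2ba, Hist1h2aa and H3f3b, against 13.6% and 1.74% of all promoters. GGGCGG was found at Hist1h1t, H2afz and H3f3a (35.7% of all promoters). TGACG was found at 4 genes (20.8% of all promoters), and the longer palindrome TGACGTCA, which contains it, at 0 of them (1.79% of all promoters). The 2 H3.3 promoters therefore share CCAAT and differ in the other letters searched: H3f3a holds GC boxes, and H3f3b a TATA box, an octamer and TGACG. The Hils1 window holds 0 CG pairs, against 34 for H2afz, 39 for H3f3a and 24 for H3f3b, with a median of 7 over all promoters. A match describes these letters and shows no binding.

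After filtering and removal of doublets the samples held 7413 and 12933 cells with medians of 3678 and 4333 UMIs, and 32 barcodes occurred in both. Cells were put into 7 germ and 3 somatic classes by the UMIs of marker genes that include none of the 8, and a class name stands for cells that resemble that type. The 7 germ classes were spermatogonia, leptotene/zygotene cells, earlier pachytene cells, later pachytene/diplotene cells, round spermatids, spermatids starting elongation and protamine-high spermatids. Germ classes held 430 to 2077 cells per sample, with median UMIs per cell from 1982 in leptotene/zygotene to 11505 in earlier pachytene. The somatic classes were Sertoli (144 and 253 cells), Leydig (635 and 1503) and macrophages (110 and 169). In replicate 1 the Sertoli class carried more UMIs of elongating-spermatid markers (median 2.00% of a cell's UMIs) than of Sertoli markers (0.893%), and 0 cells were Sertoli when clusters were named by markers. In replicate 2 the medians were 0.212% and 2.77%. Spermatogonia carried more UMIs of leptotene/zygotene markers (medians of 0.443% and 0.393% of a cell's UMIs) than of differentiating spermatogonia markers (0.161% and 0.237%). Cells close to meiosis may be in this class, but the lists hold genes of different abundance, so these shares do not place it. Between 83 and 234 cells per class and sample lay near the boundaries that divide pachytene and spermatid stages. Smarca5 itself stood at 285 and 225 CPM (UMIs of a gene scaled to the total of its class) in spermatogonia, 264 and 275 in leptotene/zygotene and 9.1 and 4.86 in protamine-high spermatids, and these 3′ tags do not check the deletion.

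Levels below are CPM of all UMIs of a class, given for replicate 1 and then replicate 2, and compare classes within a gene but not genes with each other. Log2 fold changes come from an edgeR quasi-likelihood fit of 19978 genes with TMM scaling and are given ± SE with p adjusted over all genes (called under 0.05). Classes hold different RNA contents, and the reference matters: scaling by total count alone moved the median of all genes by −0.44 at the step into earlier pachytene and by −0.42 at the step to protamine-high spermatids, and DESeq2's size factors moved it by 0.40 at the step into later pachytene. Free RNA was read in 15453 barcodes of replicate 1 with 10 to 100 UMIs, and it was rich in spermatid transcripts. The 12 markers of elongating spermatids made up 3.02% of its UMIs and were all found in every class, at 0.226% to 0.321% in spermatogonia and leptotene/zygotene cells of replicate 1 and 0.114% to 0.122% in its pachytene classes.

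Of the 8 genes, 7 changed at 1 or more steps between neighbouring germ classes, and H3f3a at none. The share of all genes that changed at 1 or more steps was not counted, so this count has no background. At the step from spermatogonia to leptotene/zygotene 5 rose and 0 fell, where 15% of all tested genes rose and 12.2% fell. Into earlier pachytene 2 rose and 3 fell (20.3% and 21.4% of all genes), and into later pachytene/diplotene 1 rose and 4 fell (22% and 23.1%). Round spermatids over later pachytene/diplotene gave 3 higher and 4 lower (28.2% and 26.3%). Spermatids starting elongation over round spermatids gave 2 and 2 (17.5% and 9.79%), and the last step 1 and 1 (12.1% and 11.9%). Of 48 gene and step combinations, 14 were higher and 14 lower, to be read beside the shares of all genes at each step. The median log2 change of the 8 was 0.84 at the first step (all genes 0.09), −0.25 at the second (−0.20), −0.63 at the third (−0.02), −0.20 at the fourth (−0.10), 0.71 at the fifth (0.00) and −0.13 at the last (0.06).

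**Figure D1:**
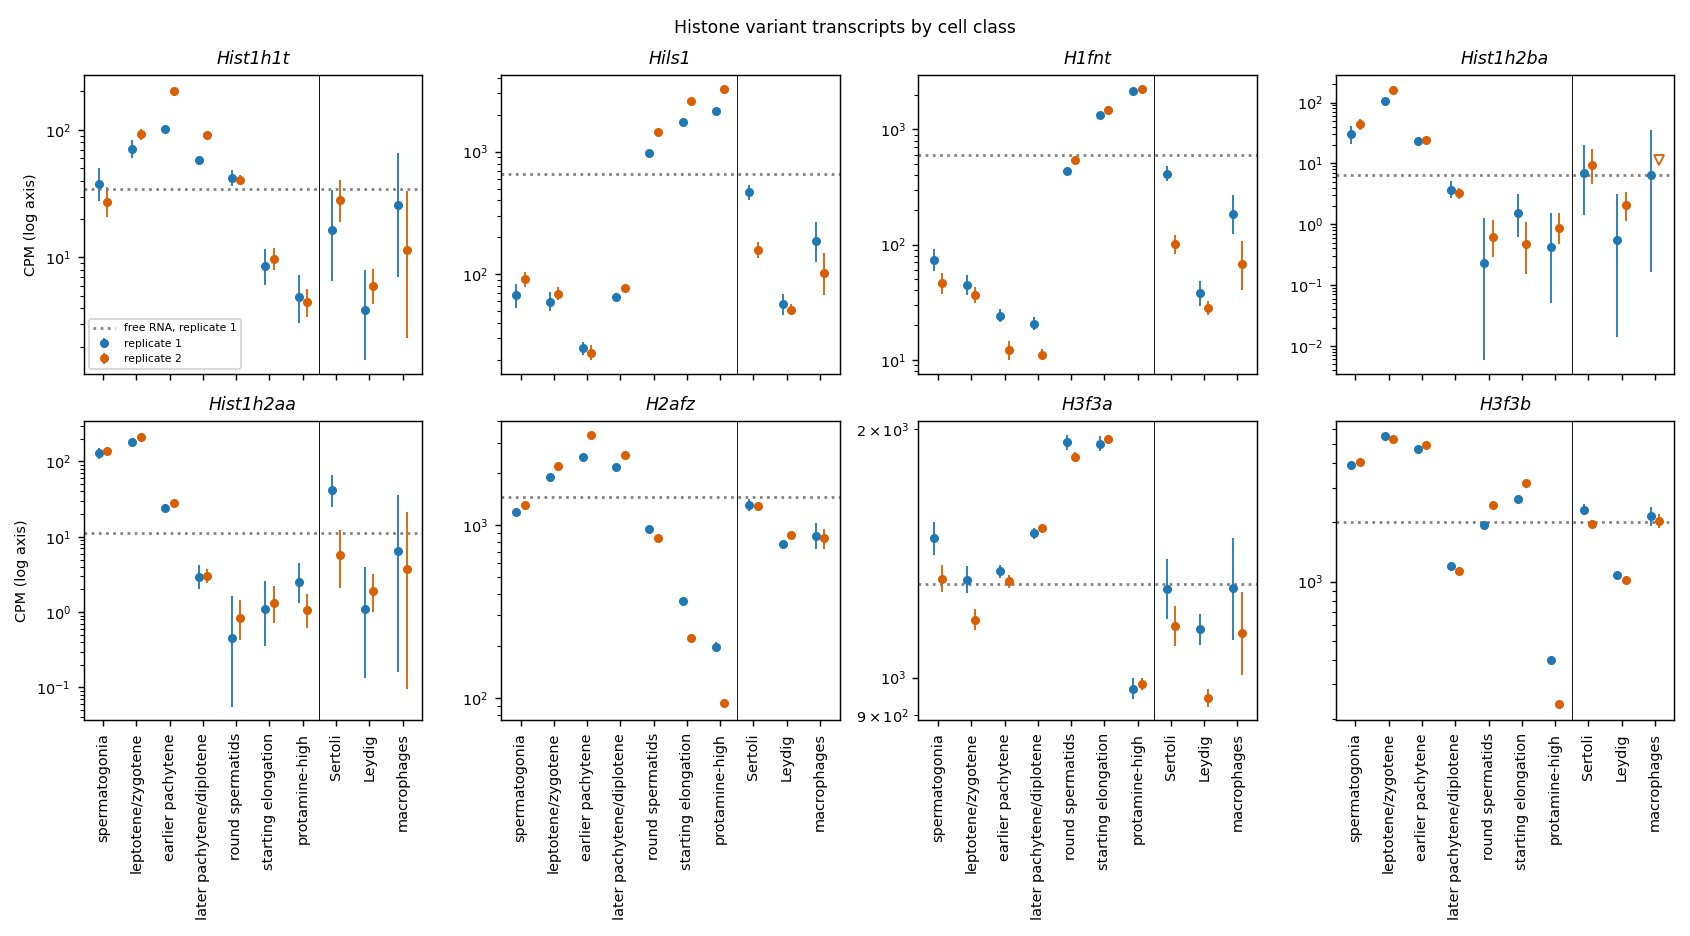
Level of each gene in CPM (log axis) in 7 germ and 3 somatic classes, with replicates 1 and 2 as separate points and 95% Poisson bars that cover counting error only. Dotted lines show free RNA in replicate 1 and an open triangle marks 0 UMIs, drawn at the floor of 3 counts. Hist1h2ba and Hist1h2aa peak in leptotene/zygotene, Hist1h1t in earlier pachytene, and Hils1 and H1fnt in spermatids.

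**Figure D2:**
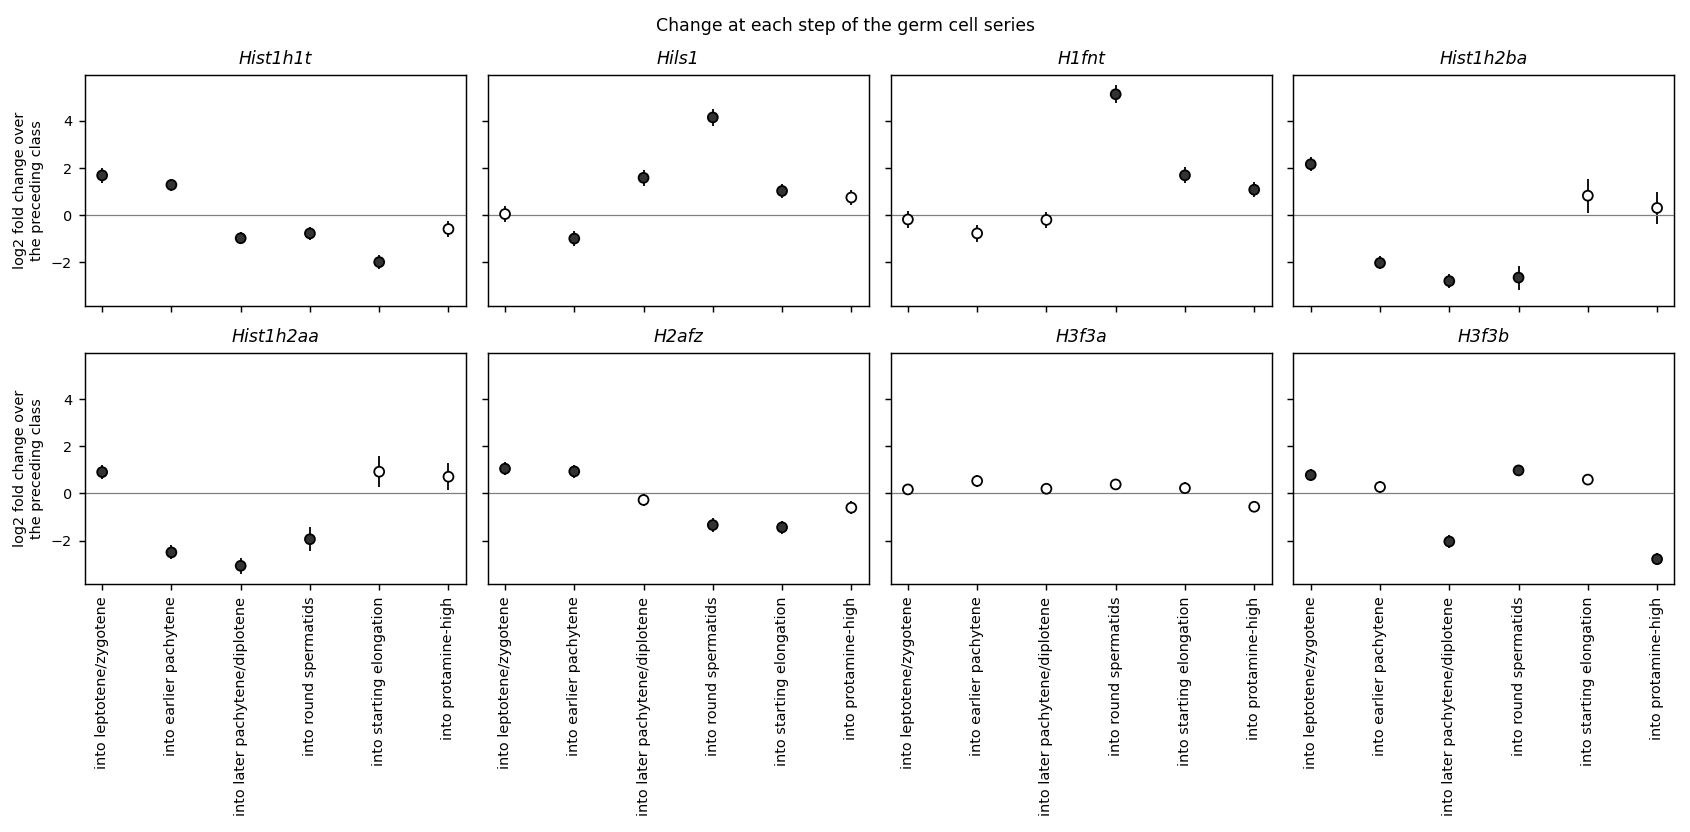
Log2 fold change (± SE, edgeR) of each gene at the 6 steps between neighbouring germ classes, with filled points for adjusted p under 0.05. H1fnt has the highest point, 5.13 at the step to round spermatids, and H3f3a has no filled point.

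The linker histones came in sequence, Hist1h1t in spermatocytes and then Hils1 and H1fnt in spermatids. Hist1h1t encodes H1t, the testis H1 that spermatocytes add. Hist1h1t stood at 37.7 and 27.3 CPM in spermatogonia, 71.1 and 92.0 in leptotene/zygotene, 101 and 202 in earlier pachytene and 57.5 and 91.0 in later pachytene/diplotene. After meiosis it stood at 41.9 and 40.5 in round spermatids, 8.57 and 9.74 in spermatids starting elongation and 4.87 and 4.46 in protamine-high spermatids. Free RNA of replicate 1 held 34.3 CPM, near the level in spermatogonia, and the part of free RNA in these levels was not tested. Both replicates were highest in earlier pachytene, although they differed there by more than in any other germ class. Hist1h1t rose 3.22-fold into leptotene/zygotene (log2 1.69 ± 0.31, edgeR adjusted p = 3.2e-05) and 2.44-fold into earlier pachytene (1.28 ± 0.27, adjusted p = 7.8e-05). It then fell by 0.98 ± 0.26 into later pachytene (adjusted p = 0.0014), by 0.77 ± 0.26 into round spermatids (0.011) and by 1.99 ± 0.30 at the start of elongation (3.9e-07). The last step was not called (−0.59 ± 0.34, 0.23). The falls into later pachytene and into round spermatids lost their call under 4 and 3 of 10 alternatives, with adjusted p up to 0.18 and 0.19. Cells thinned to 1000 UMIs each held a Hist1h1t UMI in 8.75% and 15.6% of earlier pachytene cells, and in 0.472% and 0.665% of Leydig cells.

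Hils1 encodes a spermatid linker histone-like protein that appears as nuclei condense. Hils1 stood at 67.1 and 91.1 CPM in spermatogonia, 59.8 and 69.4 in leptotene/zygotene, 24.8 and 22.9 in earlier pachytene and 64.9 and 77.5 in later pachytene/diplotene. It reached 975 and 1460 in round spermatids, 1742 and 2597 at the start of elongation and 2158 and 3270 in protamine-high spermatids. All values before round spermatids lay below the 652 CPM of free RNA, in which the gene was abundant. Hils1 rose 17.7-fold into round spermatids (log2 4.14 ± 0.36, edgeR adjusted p = 8.6e-15) after a smaller rise of 1.58 ± 0.33 into later pachytene (7.6e-05). The further rise at the start of elongation was 1.03 ± 0.31 (0.010; 0.23 with doublets kept), and the last step was not called (0.75 ± 0.31, 0.076). At the step into earlier pachytene Hils1 fell by 0.99 ± 0.33 (0.014), between classes that lay under the free RNA level and whose spermatid-marker share fell as well. That call was lost under 4 of 10 alternatives (adjusted p up to 0.39), and the part of free RNA in it was not tested.

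H1fnt encodes H1T2, a linker histone found at the apical pole of the spermatid nucleus. H1fnt stood at 73.8 and 46.0 CPM in spermatogonia, 44.8 and 36.7 in leptotene/zygotene, 24.2 and 12.1 in earlier pachytene and 20.6 and 11.1 in later pachytene/diplotene. In spermatids it stood at 435 and 548 (round), 1331 and 1478 (starting elongation) and 2175 and 2260 (protamine-high). The spermatid values did not overlap those of any earlier class. Free RNA held 599 CPM, which is above both round spermatid values. H1fnt rose 34.9-fold into round spermatids (log2 5.13 ± 0.39, edgeR adjusted p = 1.9e-16, 4.38 in replicate 1 alone and 5.72 in replicate 2 alone), by 1.69 ± 0.33 at the start of elongation (6.1e-05) and by 1.08 ± 0.33 at the last step (0.011). The last of these lost its call under 3 of 10 alternatives (p up to 0.13). None of the 3 steps before round spermatids was called (−0.18, −0.77 and −0.20). Hils1 differed from H1fnt in its earlier rise, since H1fnt did not move into later pachytene beyond its error, though no test of the difference between genes was run.

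The pair of testis core histones, Hist1h2ba (TH2B) and Hist1h2aa (TH2A), peaked together in leptotene/zygotene and had nearly gone by later pachytene. TH2B replaces much of the canonical H2B in spermatocytes. Hist1h2ba stood at 30.2 and 44.1 CPM in spermatogonia, 106 and 159 in leptotene/zygotene, 23.5 and 23.8 in earlier pachytene and 3.71 and 3.2 in later pachytene/diplotene. In the 3 spermatid classes it lay between 0.229 and 1.54 CPM. Hist1h2aa stood at 128 and 139 in spermatogonia, 183 and 212 in leptotene/zygotene, 24.0 and 27.8 in earlier pachytene and 2.97 and 3.02 in later pachytene/diplotene. In spermatids it lay between 0.458 and 2.54 CPM. Both genes thus held their highest level in the same class in both samples, and Hist1h2aa was relatively higher before it, in spermatogonia.

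Hist1h2ba rose 4.47-fold into leptotene/zygotene (log2 2.16 ± 0.30, edgeR adjusted p = 2.2e-07) and Hist1h2aa 1.87-fold (0.91 ± 0.28, 0.013). The rise of Hist1h2aa was the less stable: it lost its call under 5 of 10 alternatives, with adjusted p up to 0.27. Into earlier pachytene Hist1h2ba fell by 2.03 ± 0.28 (2.6e-08) and Hist1h2aa by 2.5 ± 0.29 (5.4e-10). Into later pachytene/diplotene the further log2 changes were −2.79 ± 0.31 (1.7e-10) and −3.07 ± 0.33 (7.4e-11). The step into round spermatids brought both near the level of single UMIs, with log2 changes of −2.65 ± 0.51 (1.3e-05) and −1.94 ± 0.51 (9.8e-04; −0.96 and 0.095 with doublets kept). Neither later step was called for either gene. In cells thinned to 1000 UMIs, Hist1h2ba was seen in 8.55% and 12.1% of leptotene/zygotene cells and in 0.374% and 0.144% of later pachytene/diplotene cells, and Hist1h2aa in 15.3% and 18.4% and in 0.523% and 0.144%. The stem-loop mRNAs of canonical histones are poorly primed from poly(A), so no comparison with them is made.

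H2afz encodes H2A.Z, a replacement H2A found at promoters in most cell types, and it was a spermatocyte-high gene here. Its level was 1189 and 1312 CPM in spermatogonia, 1907 and 2188 in leptotene/zygotene, 2495 and 3306 in earlier pachytene and 2180 and 2535 in later pachytene/diplotene. It was 954 and 844 in round spermatids, 362 and 221 at the start of elongation and 198 and 93.6 in protamine-high spermatids. H2afz rose into leptotene/zygotene (log2 1.05 ± 0.28, edgeR adjusted p = 0.0034) and into earlier pachytene (0.94 ± 0.28, 0.0054). The first of these rises had adjusted p = 0.059 without the sample block, and the second 0.091 with scaling by total count. The change into later pachytene was not called (−0.28 ± 0.28, 0.45). H2afz then fell by 1.34 ± 0.28 into round spermatids (5.7e-05) and by 1.44 ± 0.28 at the start of elongation (6.3e-05), the latter by 0.58 (0.20) with doublets kept. In cells thinned to 1000 UMIs the gene was seen in 92.0% and 94.3% of earlier pachytene cells and in 17.8% and 11.0% of protamine-high spermatids.

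H3f3a and H3f3b encode the same protein, H3.3, and their transcripts followed different courses. H3f3a lay between 1175 and 1942 CPM up to the start of elongation, and lower in protamine-high spermatids. It stood at 1474 and 1318 in spermatogonia and 1314 and 1175 in leptotene/zygotene. In earlier pachytene it stood at 1345 and 1307, and in later pachytene/diplotene at 1496 and 1517. It stood at 1927 and 1851 in round spermatids, 1919 and 1942 at the start of elongation and 970 and 981 in protamine-high spermatids. No step of H3f3a was called. Its largest log2 changes were 0.53 ± 0.24 into earlier pachytene (edgeR adjusted p = 0.073) and −0.56 ± 0.24 at the last step (0.085). Both of them were called under some alternatives (5 and 3 of 10). Over the alternatives they ranged from 0.09 to 0.97 and from −0.98 to −0.36. In thinned cells H3f3a was seen in 83.5% and 81.8% of spermatids starting elongation and in 48.7% and 46.8% of protamine-high spermatids.

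After a first, less stable rise, H3f3b fell, rose and fell again. It stood at 3938 and 4061 CPM in spermatogonia, 5498 and 5347 in leptotene/zygotene, 4713 and 4980 in earlier pachytene and 1203 and 1135 in later pachytene/diplotene. It came back to 1951 and 2463 in round spermatids and 2622 and 3181 at the start of elongation, and stood at 398 and 238 in protamine-high spermatids. The replicates lay close together up to later pachytene/diplotene and further apart in the spermatid classes. Into later pachytene/diplotene H3f3b fell 4.11-fold (log2 −2.04 ± 0.26, edgeR adjusted p = 5.1e-09), and at the last step 6.90-fold (−2.79 ± 0.27, 1.2e-11), the latter −2.33 in replicate 1 alone and −3.35 in replicate 2 alone. Between them it rose by 0.98 ± 0.25 into round spermatids (7.6e-04; 0.39 and 0.21 with clusters named by markers as classes). The rise into leptotene/zygotene, 0.78 ± 0.25 (0.015), lost its call under 5 of 10 alternatives (p up to 0.14). In cells thinned to 1000 UMIs H3f3b was seen in 97.9% and 97.7% of earlier pachytene cells, 59.4% and 59.4% of later pachytene/diplotene cells and 84.1% and 83.9% of spermatids starting elongation.

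The share of H3.3 UMIs that came from H3f3b is given as a description within each library. It moves with either gene, and it compares UMI numbers without regard to transcript length or capture. It was 72.8% and 75.5% in spermatogonia, 80.7% and 82.0% in leptotene/zygotene and 77.8% and 79.2% in earlier pachytene. In later pachytene/diplotene it was 44.6% (exact 95% interval 44.0% to 45.1%) and 42.8% (42.5% to 43.2%). It was 50.3% and 57.1% in round spermatids, 57.7% and 62.1% at the start of elongation and 29.1% and 19.5% in protamine-high spermatids. H3f3b thus supplied most H3.3 UMIs up to earlier pachytene, and H3f3a most of them in later pachytene/diplotene and in protamine-high spermatids. Among somatic classes the share was 48.5% and 52.0% for Leydig cells, 64.5% and 62.9% for Sertoli cells and 62.6% and 64.2% for macrophages. Intervals cover counting error only, and those of the 2 replicates do not overlap in any of the 7 germ classes or in Leydig cells.

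**Figure D3:**
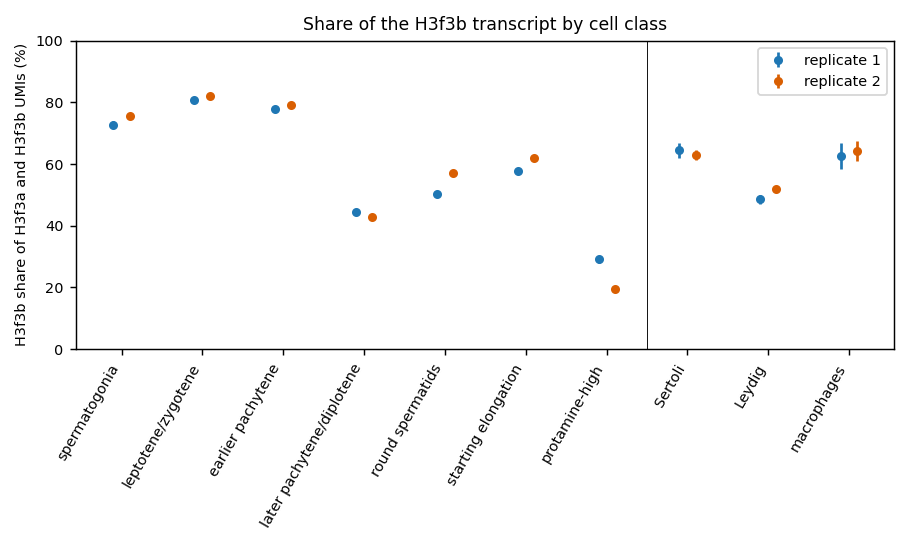
Share of H3.3 UMIs from H3f3b (percent, y axis from 0 to 100) by class for replicates 1 and 2, with exact 95% binomial bars. The share falls from 77.8% and 79.2% in earlier pachytene to 44.6% and 42.8% in later pachytene/diplotene, and is lowest in protamine-high spermatids (29.1% and 19.5%).

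The mean of the 7 germ classes was compared with the mean of the 3 somatic classes, which asks which of the genes are higher in germ classes on average. Of the 8, 6 were higher in germ cells and 0 lower, where 32.6% of all genes were higher and 24.4% lower, and the median log2 difference was 0.95 (all genes 0.50). Hist1h1t was 1.76 ± 0.23 higher (edgeR adjusted p = 4.9e-09), Hils1 1.28 ± 0.18 (2.7e-08), H1fnt 0.90 ± 0.19 (6.6e-05) and Hist1h2aa 1.01 ± 0.41 (0.031, lost under 5 of 10 alternatives). H3f3a and H3f3b, which most cells express, were higher by 0.68 ± 0.12 (4.2e-06) and 0.76 ± 0.13 (1.1e-06). From replicate 1 or 2 alone the differences were 0.76 or 1.89 for Hils1, 0.51 or 1.39 for H1fnt and 0.69 or 1.59 for Hist1h2aa. Hist1h2ba (1.08 ± 0.48, 0.053) and H2afz (0.31 ± 0.14, 0.057) were not called. A mean over 7 classes can miss a gene high in few of them. Hist1h2ba stood at 106 and 159 CPM in leptotene/zygotene, against somatic means of 4.65 and 3.83 CPM. Somatic levels of the testis genes differed by class: for Hils1 the Sertoli values were 468 and 158 CPM, the macrophage values 186 and 102 and the Leydig values 56.7 and 51.4. For H1fnt they were, in the same order, 414 and 101, 186 and 68.2, and 37.8 and 28.4, and for Hist1h1t 16.3 and 28.3, 25.7 and 11.4, and 3.89 and 6.01. Sertoli cells carried all 12 elongating-spermatid markers at 2.52% and 0.590% of UMIs. Macrophages carried them at 0.676% and 0.281% and Leydig cells at 0.201% and 0.135%, and the part of this RNA in the somatic levels was not tested. Without the Sertoli class all 8 were called higher, where 6420 of all genes were higher and 5013 lower (6522 and 4868 with it). The log2 differences were then 1.81 for Hils1, 1.42 for H1fnt, 1.76 for Hist1h2aa, 1.64 for Hist1h2ba and 0.41 for H2afz. Hist1h2ba had 0 UMIs in the macrophages of replicate 2, which allows up to 11.4 CPM (3 counts).

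Other genes of the same systems were read from 3 lists. Their counts stand beside the shares of all genes higher and lower at the 6 steps, which were 15% and 12.2%, 20.3% and 21.4%, 22% and 23.1%, 28.2% and 26.3%, 17.5% and 9.79%, and 12.1% and 11.9%. Of 24 other histone variant genes 16 had enough counts. They gave 3 higher and 3 lower at the first step, then 3 and 6, 2 and 4, 4 and 4, 4 and 4, and 4 and 3. The 4 higher and 4 lower at the fourth step are near the share of all genes. Cenpa, the centromeric H3 variant, fell by 3.89 ± 0.33 into leptotene/zygotene and by 3.61 ± 0.50 into earlier pachytene. H2afx, whose product is phosphorylated at DNA breaks, rose by 2.03 ± 0.28 at the first step. H2afb3, a short H2A variant, rose by 3.81 ± 0.48 into later pachytene, between low levels (0.208 and 0.578 CPM to 3.71 and 7.51). It was higher still in round spermatids, at 20.4 and 38.1 CPM, and fell by 1.72 ± 0.30 and 2.47 ± 0.42 at the last 2 steps. H2al2a, a spermatid H2A variant that works with transition proteins, rose by 3.29 ± 0.35 at the start of elongation and by 1.75 ± 0.32 at the last step. H1f0, the H1 of resting and differentiated cells, fell by 1.44 ± 0.28 into later pachytene.

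Of 32 histone chaperones and exchange factors, 8 rose and 4 fell at the first step, then 10 and 11, 2 and 12, 1 and 13, 4 and 6, and 1 and 5. At the third and the fourth step 6.25% and 3.12% of the list rose and 37.5% and 40.6% fell, against 22% and 28.2% of all genes that rose and 23.1% and 26.3% that fell. At the step where H3f3b fell 4.11-fold, Hira, the H3.3 chaperone that works outside replication, fell by 2.15 ± 0.30 and Supt16, a subunit of FACT, by 2.11 ± 0.26. Atrx, which loads H3.3 with DAXX, had fallen by 1.56 ± 0.30 into leptotene/zygotene and by 4.02 ± 0.40 into earlier pachytene, and Dek, a further H3.3-binding protein, by 3.73 ± 0.29 at the latter. Ubn1, a partner of HIRA, fell by 2.72 ± 0.28 into round spermatids. Anp32e, which removes H2A.Z from nucleosomes, fell by 1.30 ± 0.29 at the first step and rose by 1.44 ± 0.49 and 2.43 ± 0.35 at the last 2. These late rises were between low levels: 1.37 and 0.905 CPM in round spermatids, 2.64 and 2.44 at the start of elongation and 10.8 and 9.72 in protamine-high spermatids. In spermatogonia Anp32e stood at 83.9 and 86.8 CPM. Nasp, a chaperone of H1 and H3-H4, fell by 2.19 ± 0.28 at the last step.

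Of 16 genes linked to histone removal in spermatids, 3 rose and 2 fell at the first step, then 1 and 7, 2 and 5, 6 and 5, 6 and 0, and 1 and 2. At the fifth step 37.5% of the list rose, against 17.5% of all genes. Brdt, whose product binds acetylated histones, rose by 2.03 ± 0.27 into leptotene/zygotene. Rnf8, a ubiquitin ligase that acts on H2A and H2B, fell by 1.63 ± 0.26 into later pachytene. Cdyl and Chd5, a chromodomain protein and a remodeler needed for chromatin condensation, rose by 4.56 ± 0.33 and 4.49 ± 0.32 into round spermatids, the step of the Hils1 and H1fnt rises. Prmt5 fell there by 2.88 ± 0.33. At that step 37.5% of the list rose and 31.2% fell, against 28.2% and 26.3% of all genes. Tssk6, a spermatid kinase, rose by 4.04 ± 0.36 at the start of elongation. All these values are log2 changes with edgeR adjusted p under 0.05.

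Over the 20 class and replicate points, the genes whose log2(CPM + 10) followed each member most closely are given as a description, since the points share libraries and cell classes. Hils1 was nearest to Tssk2 (Pearson r = 0.999), Ropn1 (0.998) and Tmem247 (0.997), and H1fnt to Prm3 (0.997), which is a marker of the spermatid classes, Iqcf3 (0.996) and 4933411K16Rik (0.996). Hist1h2aa was nearest to 4930447C04Rik (0.973), Haus6 (0.968) and Cdc7 (0.963), and Hist1h2ba to CN725425 (0.969). H2afz was nearest to Ptges3 (0.963), H3f3a to Itgb1bp1 (0.951) and Hist1h1t to 6330408M09Rik (0.95). H3f3b had the lowest best match, Setd3 at 0.851. Among the 8 genes, r was 0.976 for Hils1 with H1fnt, 0.933 for Hist1h2ba with Hist1h2aa and 0.126 for H3f3a with H3f3b.

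In the ATAC lists cKIT_WT replicate 1 stood apart, with 44697 peaks against 112518 to 127222 in the other cKIT+ libraries and 54059 to 59417 in the 4C-sorted ones. The measure was the number of bases covered by peaks within 5 kb of a gene, and the depth of the libraries is unknown. The listed start site was inside a peak in all 8 libraries for 5 of the 8 genes (Hist1h2ba, Hist1h2aa, H2afz, H3f3a and H3f3b), against 33.6% of 27025 genes. Hist1h2ba and Hist1h2aa lie under the same peak and count as 1 observation. Between the stages, 4C-sorted over cKIT+, 4 of the 8 genes were higher with groups that did not overlap (5.98% of 39279 genes) and 1 was lower (7.1%). Each has an exact two-sided permutation p of 0.0286, the smallest that 4 against 4 can give. No gene passed after adjustment (smallest adjusted p 0.22, 0 of 39279 genes), while 5134 had an unadjusted p under 0.05. Without cKIT_WT replicate 1 the counts were again 4 and 1, but 6.27% of all genes were then higher and 41.4% lower, so 1 of 8 lower lies under the share of all genes there.

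**Figure D4:**
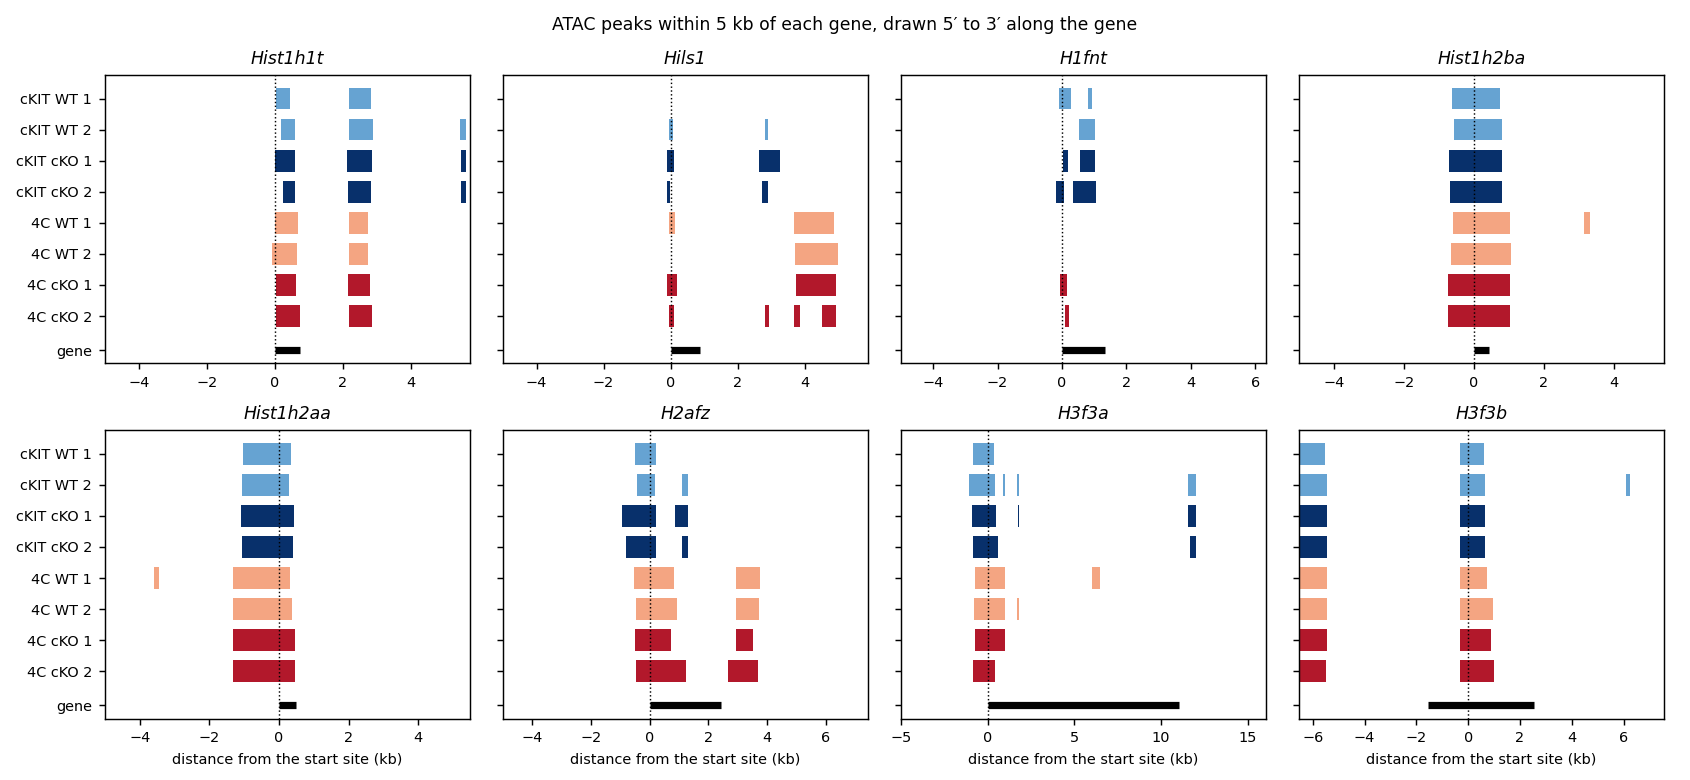
Peaks in each of the 8 libraries drawn as bars by distance from the start site of each gene, in kb along the direction of transcription, with the gene as a black bar. The start of H2afz is covered in every library, and the peak there reaches further into the gene in the 4C-sorted ones.

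H2afz (chromosome 3, 137864487 to 137866922, plus strand) had the largest difference. Its covered bases were 715 and 865 in cKIT+ wild type, 1623 and 1237 in cKIT+ cKO, 2185 and 2199 in 4C wild type and 1858 and 2775 in 4C cKO, a mean difference of 1144 bases (1013 without cKIT_WT replicate 1). The peak over its start site ended 198 to 226 bases into the gene in the 4 cKIT+ libraries and 736 to 1249 bases into it in the 4C-sorted ones. A separate peak inside the gene, between 857 and 1322 bases after the start, was called in 3 of the 4 cKIT+ libraries. By the authors' fold enrichment the start-site peak stood within its own list at percentiles 83.9 to 95.4 in cKIT+ cells and 68.6 to 74.1 in 4C-sorted cells. The lists differ in length, so these percentiles show no change between stages. Peaks at its downstream neighbour Dnajb14, from 2664 to 3749 bases after the start, were called in the 4 4C libraries and add to their sum.

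Hist1h2ba and Hist1h2aa (chromosome 13, 23933725 to 23934156 and 23934437 to 23934913) were covered by 1375 and 1369 bases in cKIT+ wild type and 1531 and 1468 in cKIT+ cKO. In 4C-sorted cells wild type had 1789 and 1700 bases and cKO 1784 and 1776, a mean difference of 327 bases (306 without cKIT_WT replicate 1). The groups do not overlap, and the peak includes the shared interval whose sequence is printed above. Accessible chromatin was thus called there in both stages. The RNA of both genes was highest in leptotene/zygotene and at 2.97 to 3.71 CPM in later pachytene/diplotene. A 4C sort can take cells of both of these classes, so the peak cannot be assigned to either.

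Hils1 (chromosome 11, 94967593 to 94968456, inside Sgca) had 0 and 220 covered bases in cKIT+ wild type, 815 and 272 in cKIT+ cKO, 1369 and 1291 in 4C wild type and 1498 and 894 in 4C cKO. The difference of 936 bases (827 without cKIT_WT replicate 1) comes mainly from peaks that lie 3659 to 4977 bases after its start, in Sgca, in the 4 4C libraries and no cKIT+ library. With peaks of −log10 q of at least 5 alone it turned to −225. At the start site itself a peak was called in 2 of 4 cKIT+ and 3 of 4 4C libraries, all of them narrow (119 to 292 bases).

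H1fnt (chromosome 15, 98255982 to 98257307, minus strand) went the other way, with 519 and 516 covered bases in cKIT+ wild type, 648 and 941 in cKIT+ cKO, 0 and 0 in 4C wild type and 229 and 145 in 4C cKO. The mean difference was −563 bases (−608 without cKIT_WT replicate 1). A peak that ended 941 to 1047 bases after the start, in the gene, was called in all 4 cKIT+ libraries and in no 4C library. With peaks of −log10 q of at least 5 alone the difference was −426, and the groups overlapped: the peak passed that limit in 3 cKIT+ libraries (−log10 q of 10.8, 6.63 and 8.15) but not in cKIT_WT replicate 1 (2.00), and no 4C library had a peak that passed. With lists of equal length it was −340, again with overlap. Its RNA was at 73.8 CPM or less in all classes before round spermatids, and no spermatid ATAC library was analysed here.

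Hist1h1t, H3f3a and H3f3b overlapped between the stages. Hist1h1t (chromosome 13, 23695811 to 23696545) had 1090 to 1459 covered bases in cKIT+ and 1231 to 1380 in 4C-sorted libraries (difference 31.2, exact permutation p = 0.74), part of them at its neighbour H4c3. H3f3a (chromosome 1, 180802560 to 180813605) had 1194 to 2174 and 1247 to 2170 (−49.2, exact permutation p = 0.86). H3f3b (chromosome 11, 116021961 to 116026039) had 1923 to 2167 and 2141 to 2330 (230, exact permutation p = 0.057), and its peaks include one at the neighbouring gene Unk.

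**Figure D5:**
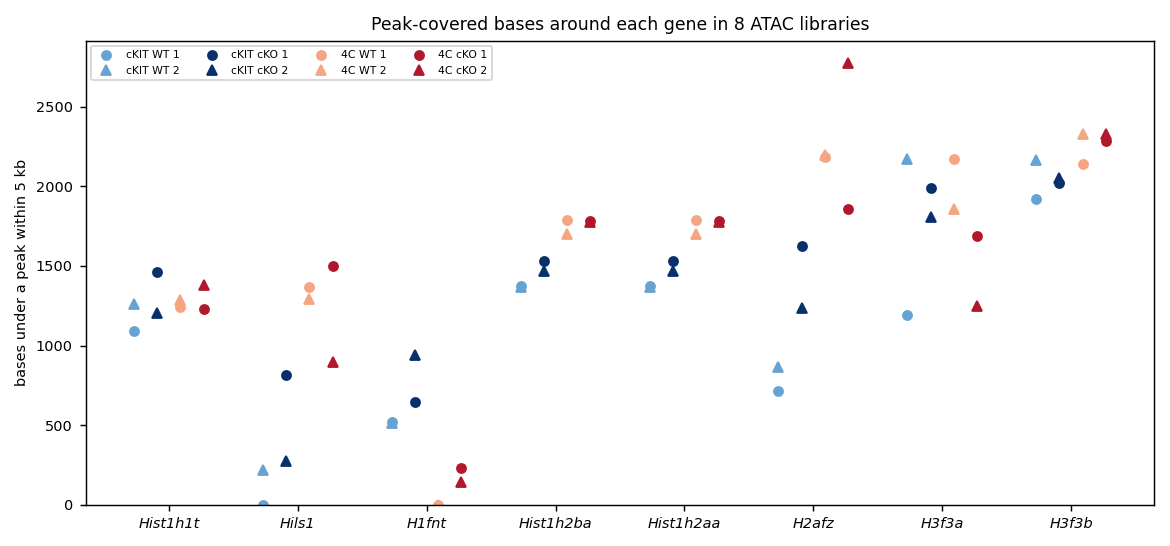
Bases covered by peaks within 5 kb of each gene in the 8 libraries, grouped by sort and genotype, 1 point per library. The cKIT+ and 4C-sorted libraries do not overlap for Hils1, H1fnt, Hist1h2ba, Hist1h2aa and H2afz.

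Between genotypes the design has 2 libraries against 2, for which the smallest exact permutation p is 0.333, so no difference can reach 0.05. In cKIT+ cells 5 genes were higher in cKO with groups that did not overlap (31.6% of 36678 genes) and 0 were lower (2.27%). These were Hils1 (mean difference 434 bases), H1fnt (277), Hist1h2ba and Hist1h2aa (128) and H2afz (640). All of these wild-type values include the library with the fewest peaks. Without it 5 genes were higher and 2 were lower, H3f3a (−277) and H3f3b (−130). With 1 wild-type library left, 34.6% of all genes were higher and 36.3% lower. In 4C-sorted cells 1 gene was higher in cKO (20.8% of 33348 genes), H1fnt with 229 and 145 bases against 0 and 0. The 1 lower gene (16.5%) was H3f3a, with 1688 and 1247 against 2170 and 1860. The other 6 overlapped between genotypes in the 4C-sorted cells.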

How the data were processed

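The authors deposited, for each single-cell sample, a matrix of raw UMI counts from Cell Ranger, version 7.1.0 for replicate 1 and version 9.0.1 for replicate 2 (per the file headers). Seurat 4.1.0 is named in the submitters' processing notes without a role. The ATAC files hold peaks that the authors called per library on mm10, per the submitters' processing notes with cutadapt, Bowtie2 and MACS2, whose versions are not given in the sources used here. Per deposited peak there is a fold enrichment, a ratio over local background, with the authors' −log10 p and −log10 q.

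Barcodes needed at least 1000 UMIs, 500 genes and at most 10% mitochondrial UMIs, and 685 and 1329 doublets were removed with Scrublet in scanpy 1.11.5. A further 628 and 2093 barcodes under 2.5% ribosomal-protein UMIs were set aside, and 6785 and 10840 cells were classed from marker UMIs. Class boundaries were set after values had been seen. Of the classed cells, 79.7% and 81.3% had the same class by clusters (19 and 18). Counts were summed per sample and class (155810 to 28774779 UMIs) and fitted with edgeR 4.0.16 (R 4.3.3), filterByExpr, TMM and sample as a block (classes of 1 sample share a suspension), with Benjamini-Hochberg adjustment over 19978 genes. DESeq2 1.42.0 was an alternative. Shares have exact Clopper-Pearson 95% intervals, levels exact Poisson ones, and UMIs from free RNA are in both. Peak coverage was tested by exact two-sided permutation over libraries, with peak positions set against RefSeq genes of GRCm38.p6. The scripts were tested on simulated data. The genes and lists were chosen with earlier results of these data known. The text names all 8 genes, the 3 nearest genes by Pearson r, and from each list per step the 3 largest changes with adjusted p under 0.05, of which a part is printed.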

Additional observations from a re-analysis of the deposited data

Results flagged for a closer look

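The covered bases of Hist1h2ba and Hist1h2aa in the 4C-sorted libraries hold a sample far from the others: 4C_WT replicate 2 had 1700 bases, against 1776, 1784 and 1789 in the other 3. Both genes lie under the same peak, so this is 1 observation. Of 16 sets of 4 libraries compared (8 genes, 2 stages), these 2 were singled out, and chance alone singles out about 5% of such sets. The lowest 4C value still lay above the highest cKIT+ value, 1531.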

How the results depend on the processing

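Of 34 called changes of the 8 genes, 21 kept direction and call under all 10 alternatives with a test and 13 lost the call under at least 1; no called change was reversed. Without either replicate all 34 kept their direction, as values with no test, but 7 moved by more than the spread between replicates (1 SD) without replicate 1 and 5 without replicate 2. Beside those in the report these were Hist1h1t into leptotene/zygotene (1.12 in replicate 1 alone) and into earlier pachytene (1.85 in replicate 2 alone) and Hist1h2ba into round spermatids (−1.92 in replicate 2 alone). H1fnt at the step into leptotene/zygotene, not called, turned to 0.94 (adjusted p 0.028) with clusters named by markers. Under peaks of −log10 q of at least 5, and under lists of equal length, 0 genes were lower in 4C-sorted cells instead of 1. Of all genes 6.3% and 5.91% were lower there. The genes higher were 3 and 5 instead of 4, where 5.55% and 15.7% of all genes were higher. Genotype counts moved most. In cKIT+ cells the genes higher in cKO ranged from 5 to 8 with 1 library left out (8 without cKIT_WT replicate 2, where 83.4% of all genes were higher) and those lower from 0 to 2 (2 without cKIT_WT replicate 1, where 36.3% of all genes were lower). In 4C-sorted cells the genes higher were 2 under the stricter q (17.5% of all genes), 3 within 1 kb (20.4%) and 2 to 3 with 1 library left out. Those lower were 2 under the stricter q (21.2% of all genes) and 1 to 3 with 1 left out. With 1 library left out there, 31.4% to 42.5% of all genes were higher and 25.2% to 34.0% lower. The cause was not tested.

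Counts over all genes beyond 1.5 times were, for higher genes into leptotene/zygotene, 2994 in the main result, 1655 by total count and 1704 without the block. Lower genes into earlier pachytene were 4267, 6673 by total count and 2822 with ribosome-poor barcodes kept. Into later pachytene, higher genes were 4394 and 2659 by clusters, and lower 4606, 2790 with DESeq2 and 2044 by clusters. Lower genes at the start of elongation were 1956, 3177 by total count, 926 without the block, 1180 with doublets kept and 1270 by clusters. At the last step, higher genes were 2422, 1386 by total count and 1425 without the block, and lower 2386, 4720 and 1410.

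Without the replicate block in the single-cell fit, 8 calls were higher instead of 14, and 25 of the 34 calls held. Over all genes the higher calls fell too, from 2994 to 1704 into leptotene/zygotene and from 5641 to 5132 into round spermatids. In ATAC the replicate numbers did not pair the samples (correlations of deviations from −0.0099 to 0.027). With a replicate block there, the 5 genes with groups that did not overlap had an exact permutation p = 0.0556, the counts stayed at 4 and 1 between stages, and the genotype counts stayed at 5 and 0 in cKIT+ and 1 and 1 in 4C-sorted cells. The alternatives "ribosome-poor barcodes kept" and "without the Sertoli class" were chosen after seeing the data. Depth limits the genes near the level of 1 UMI, as for Hist1h2ba and Hist1h2aa in spermatids.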

Other observations

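Ribosome-poor barcodes, set aside above, made up 8.47% and 16.2% of the filtered cells, with median UMIs of 1518 and 2350. Their levels were 354 and 605 CPM for H3f3b, 297 and 245 for H3f3a, 184 and 212 for H2afz and 176 and 100 for Hils1. The values of H3f3a lay below those of every germ and somatic class in both replicates.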
